A study of Mus musculus with 12 samples.

Results

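The unfolded protein response and the integrated stress response were followed through 32 genes in inguinal white adipose tissue (iWAT), the subcutaneous beige fat depot of the mouse. The 32 genes were found by their symbols, out of 24091 genes in the tables, and all 32 were among the 15413 genes expressed highly enough to be tested. They fall into 4 roles: 14 chaperones and folding enzymes of the endoplasmic reticulum (ER), 7 genes of ER-associated degradation, 6 stress sensors and transcription factors, and 5 genes induced by ATF4 or CHOP.

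RNA from whole iWAT was sequenced in 12 libraries, 3 in each of 4 groups. All mice were C57BL/6 with floxed Bmal1 alleles. BMKO mice also carried the Prx1-Cre transgene, whose promoter is active in limb mesenchyme, while BMCtr littermates lacked Cre. The paper gives progenitors and mature adipocytes of subcutaneous fat as the targets of this Cre. Which other cells of the depot kept Bmal1 is not shown by RNA of whole tissue. Ambient mice were held at 22 °C and cold mice were kept at 10 °C for 2 weeks. The legends on iWAT RNA name animals 6 weeks old, whereas the methods put cold acclimation at 10 to 12 weeks, so age may differ with temperature. A legend gives sampling 3 hours after lights on (ZT3). The design asks how loss of the clock factor Bmal1 and cold acclimation each changed the tissue's RNA.

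Proteins that enter the ER are folded by chaperones such as BiP, the product of Hspa5. Unfolded proteins release BiP from 3 sensors: IRE1 (Ern1), which splices Xbp1 mRNA, PERK (Eif2ak3), which phosphorylates eIF2, and ATF6. XBP1 and ATF6 raise chaperone and degradation genes, whereas phosphorylated eIF2 slows protein synthesis and favours translation of ATF4, which induces CHOP (Ddit3) and genes of amino acid supply. Other kinases of eIF2 respond to amino acid shortage, haem deficiency or viral RNA, and mitochondrial stress also reaches ATF4, so ATF4 targets can rise without ER stress. Gene-level counts show neither the splicing of Xbp1 nor the translation of Atf4, and a fall in a transcript of bulk tissue cannot be told apart from fewer of the cells that carry it.

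The promoters of these genes differed in the motifs they held. Of the 32 genes, 28 had a window from RefSeq on GRCm38.p6, the build also called mm10, covering 250 bases before and 50 after the start. The ER stress response element, which pairs a CCAAT box for NF-Y with a CCACG box for ATF6 at a fixed spacing (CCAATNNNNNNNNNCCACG, both strands searched), was found in 9 of the 28 windows (32.1%), against 0.119% of 32851 windows of all genes. It was present in 7 of 12 chaperone windows and 2 of 6 degradation windows, and it was not matched in the 5 windows of sensors and factors or the 5 of ATF4 and CHOP targets. The 10 matches lay with their far base between 44 and 212 bases before the start. They are shown in the element's own direction with 5 flanking bases, with the 2 fixed boxes in capitals, to show how the boxes recur while the spacer between them does not.
Hspa5 (chr2:34772020-34772048, plus strand): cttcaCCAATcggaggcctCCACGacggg
Hsp90b1, nearer match (chr10:86705528-86705556, plus strand): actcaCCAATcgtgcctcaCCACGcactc
Hsp90b1, farther match (chr10:86705633-86705661, minus strand): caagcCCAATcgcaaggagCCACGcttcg
Calr (chr8:84847070-84847098, plus strand): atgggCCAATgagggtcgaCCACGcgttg
Canx (chr11:50325795-50325823, minus strand): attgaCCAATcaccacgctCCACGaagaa
Pdia6 (chr12:17266486-17266514, plus strand): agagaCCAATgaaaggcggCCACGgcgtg
Dnajc3 (chr14:118937822-118937850, plus strand): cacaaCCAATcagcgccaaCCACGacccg
Creld2 (chr15:88819515-88819543, minus strand): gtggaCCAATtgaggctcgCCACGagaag
Syvn1 (chr19:6046527-6046555, plus strand): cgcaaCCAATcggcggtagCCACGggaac
Derl3 (chr10:75893237-75893265, minus strand): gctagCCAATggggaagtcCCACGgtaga

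The shorter ER stress response element II (ATTGGNCCACG) was matched in 2 members and in 0.0365% of all windows. Its matches, in a chaperone and a degradation gene without the longer element, are shown with 8 flanking bases and the fixed letters in capitals.
Dnajb11 (chr16:22857844-22857870, plus strand): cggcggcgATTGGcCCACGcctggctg
Herpud1 (chr8:94386369-94386395, plus strand): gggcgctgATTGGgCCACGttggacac

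ATF4 with a C/EBP partner binds the C/EBP-ATF response element (TGATGNAA, both strands). This was matched in 4 of 28 members (14.3%) and in 3.97% of all windows, and 3 of the 4 were ATF4 and CHOP targets. The 4 matches are shown in the same way because they mark the ATF4 arm, and that of Trib3 lay 15 to 22 bases after the start.
Trib3 (chr2:152344031-152344054, plus strand): cgcccggcTGATGtAAacctgagc
Asns (chr6:7693217-7693240, minus strand): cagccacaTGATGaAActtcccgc
Chac1 (chr2:119351041-119351064, minus strand): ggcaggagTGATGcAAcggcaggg
Herpud1 (chr8:94386309-94386332, minus strand): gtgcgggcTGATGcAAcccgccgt

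The XBP1 site TGACGTGG was in 0 of 28 member windows and 0.676% of all, and the E-box CACGTG, which the CLOCK-BMAL1 pair can bind, was in Calr, Derl3 and Dnajb9 (10.7%, against 7.15% of all windows). The windows of 2 members are given in full over the 250 bases before the start. Hspa5 is the reference gene of the ER response and is shown on the plus strand at chr2:34771840-34772089, with the boxes of the element in capitals.
Hspa5: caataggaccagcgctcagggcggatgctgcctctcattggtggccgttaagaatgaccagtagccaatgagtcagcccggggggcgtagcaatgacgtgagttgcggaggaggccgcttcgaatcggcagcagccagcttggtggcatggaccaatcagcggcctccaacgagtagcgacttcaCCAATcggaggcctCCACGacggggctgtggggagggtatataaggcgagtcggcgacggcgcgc
Sesn2, the member with the most stable genotype difference, is shown on the minus strand at chr4:132510457-132510706 because these 250 bases held none of the 5 motifs.
Sesn2: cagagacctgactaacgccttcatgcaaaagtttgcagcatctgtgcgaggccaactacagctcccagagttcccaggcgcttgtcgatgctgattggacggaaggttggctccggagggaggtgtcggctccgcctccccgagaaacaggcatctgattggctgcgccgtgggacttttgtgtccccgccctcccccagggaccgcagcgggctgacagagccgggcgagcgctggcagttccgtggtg

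Libraries held 17887795 to 21436282 counts (median 19481002.5), of which the 32 genes took 0.387% to 0.565%. Levels are given as CPM, that is, counts for each 1000000 counts of the library after TMM scaling of its size. Arntl, which encodes Bmal1, was at 3.77 to 10.7 CPM in ambient BMCtr and 13.5 to 18.2 CPM in ambient BMKO, and at 6.14 to 8.25 CPM and 17.6 to 19.6 CPM in the cold. These counts cover exons outside the floxed part and check nothing about the deletion. Nr1d1, which Bmal1 induces, was lower in every BMKO library than in every BMCtr library at each temperature. Xist was no lower than 1313 CPM in each ambient library and did not exceed 2.99 CPM in the cold, and the Y-linked Ddx3y was at 97.3 to 128 CPM in the cold and at most 0.0483 CPM in 5 ambient libraries, with 4.53 CPM in ambient BMKO replicate 2. Temperature and sex therefore cannot be told apart in any cold against ambient comparison, and neither can any difference in age. The paper's RNA-seq legends name male mice for an ambient panel and female mice for a panel with both temperatures, which differs from this split. The 8 adipocyte markers summed to 8390 to 12380 CPM in ambient BMCtr, 12460 to 17650 CPM in ambient BMKO, 14750 to 18000 CPM in cold BMCtr and 22130 to 25120 CPM in cold BMKO. Mammary epithelial keratin Krt18 was at 205 to 354.2 CPM in the ambient libraries and 0.222 to 1.49 CPM in the cold. The 10 skeletal muscle markers summed to 53.2 to 4571 CPM in ambient BMCtr and 83.0 to 2221 CPM in ambient BMKO. In the cold they summed to 164.3 to 5966 CPM in BMCtr and 3199 to 9091 CPM in BMKO, with 0 of 10 called between the cold genotypes. The 10 lymphocyte markers summed to 535.3 to 846.9 CPM in cold BMCtr and 10.1 to 33.9 CPM in cold BMKO, with 10 of 10 called lower in cold BMKO, whereas in the ambient libraries they ran from 15.9 to 1052 CPM across both genotypes.

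Per transcript length the chaperones led the set. Calr, the lectin chaperone calreticulin, had the highest mean over the 12 libraries at 188.5 FPKM, followed by Hsp90b1 (GRP94) at 119.6 FPKM, Hspa5 at 116 FPKM and the disulfide isomerase Pdia3 at 95.5 FPKM. Xbp1 was the most abundant transcription factor at 79.4 FPKM, above Atf4 at 51.6 FPKM. Derl3, a degradation factor typical of secretory cells, was lowest at 0.970 FPKM, below the ATF4 targets Trib3 (3.19 FPKM) and Chac1 (3.56 FPKM).

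The chaperones moved together from library to library. Over 12 libraries the median Pearson correlation of log2 CPM was 0.76 among the 91 pairs of chaperones, and it was 0.82 after group means were removed. Among the 21 pairs of degradation genes it was 0.25 (0.04 within groups), among the 15 pairs of sensors and factors -0.06 (0.18), among the 10 pairs of ATF4 and CHOP targets -0.02 (0.20), and between roles (359 pairs) 0.04 (0.24). These values are descriptions over libraries that share scaling and tissue makeup. Ranked by likeness to Hspa5, Calr (0.93) and the cochaperone Dnajb11 (0.91) came first, and Ern1 (0.69, or 0.92 within groups) was the sensor nearest to Hspa5. Ern1 and Hspa5 were both highest in ambient BMKO replicate 2 (105.9 and 617.1 CPM), and their correlation without that library was not computed. In the cold libraries Ern1 stayed between 25.6 and 28.8 CPM, while Hspa5 ran from 399.2 to 478.3 CPM.

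A pair of libraries stood apart in these genes. Ambient BMKO replicate 2 held the highest value of 15 of the 32 genes, 11 of them chaperones, and a summed chaperone level of 3992 CPM against 2912 and 2752 CPM in the other ambient BMKO libraries. Cold BMCtr replicate 2 held the highest value of 7 genes (Sdf2l1, Creld2, Herpud1, Edem1, Syvn1, Derl3 and Xbp1) and summed to 3240 CPM of chaperones against 2739 and 2750 CPM in its group. The first also had the most macrophage marker RNA (3227 CPM over 8 genes, against 1397 to 2555 CPM elsewhere), and the second the most plasma cell marker RNA (769.5 CPM over 7 genes, against 71.7 to 338 CPM). The first was also the ambient library with Ddx3y reads. It had the highest sum of 6 fibro-adipogenic progenitor markers as well (3115 CPM, against 1845 to 2730 CPM elsewhere). Of that list, Pi16 and Dcn were higher in ambient BMCtr replicate 2. The part of these markers in the chaperone values was not tested.

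**Figure D1:**
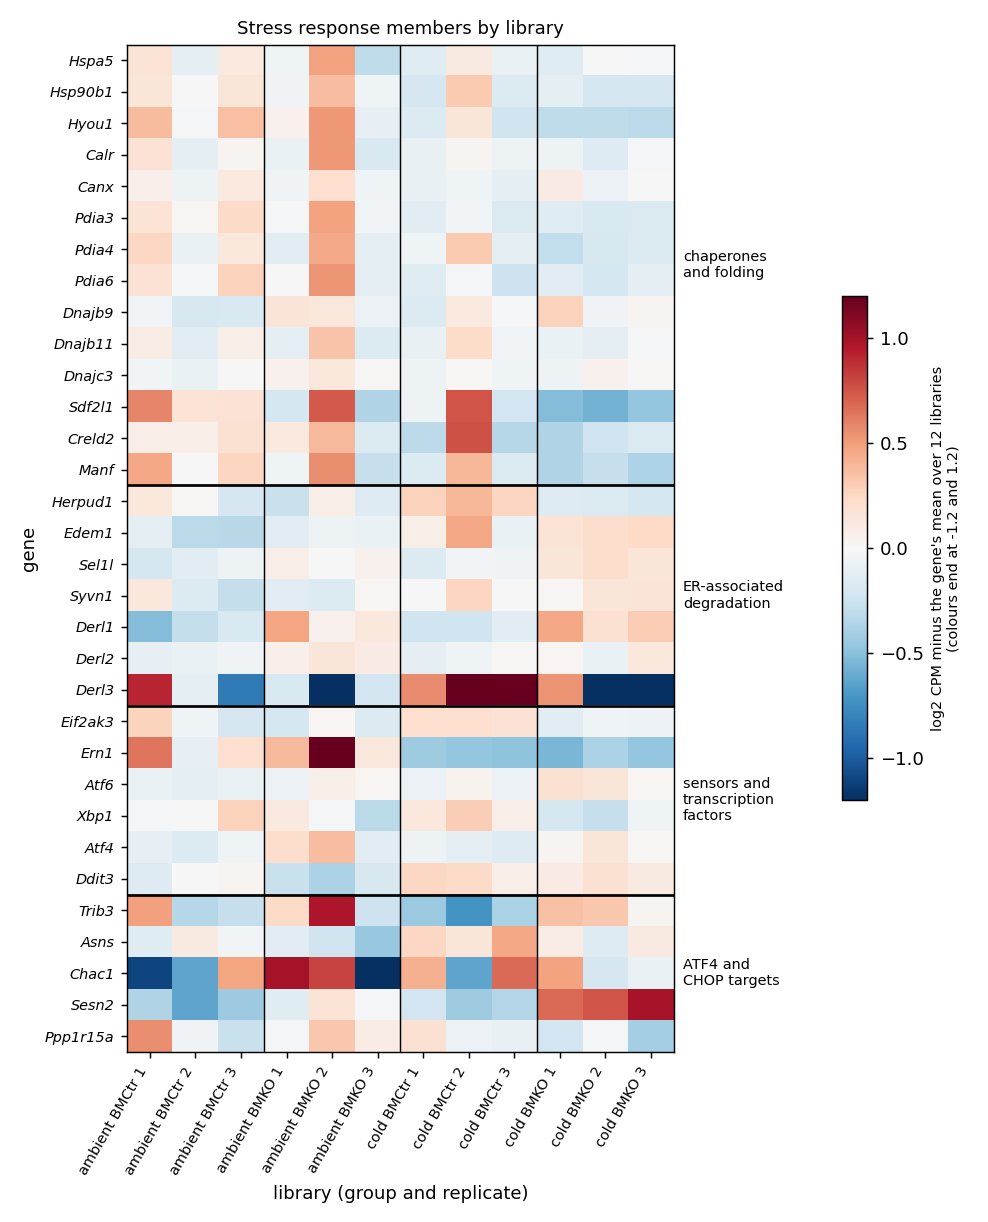
Deviation of each of the 32 genes (rows, grouped by role) from its own mean log2 CPM over the 12 libraries (columns), red for higher and blue for lower, with colours ending at -1.2 and 1.2. Ambient BMKO replicate 2 is red for nearly the whole chaperone block, cold BMCtr replicate 2 is red for Sdf2l1, Creld2 and Derl3, and Sesn2 is red in the 3 cold BMKO libraries.

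At ambient temperature, BMKO iWAT differed little from BMCtr in these genes. Of the 32, 0 passed the call, set at more than a 1.5-fold difference with unadjusted and adjusted p values below 0.05 and 0.25 in edgeR's quasi-likelihood test, against 8.63% of all tested genes (3.88% higher and 4.75% lower). The unadjusted p was under 0.05 for 6 members in edgeR, and DESeq2 (6 at that p) and limma (4) also called 0. The share of all genes at that unadjusted p is not given here, for these members or for the lists below. The median log2 fold change of the 32 was 0.02, beside -0.01 for all genes. By role it was 0.02 for chaperones, 0.16 for degradation genes, -0.02 for sensors and factors and 0.40 for ATF4 and CHOP targets, the last falling to 0.02 without ambient BMKO replicate 2. This count rests in part on ambient BMKO replicate 3, without which Derl1, Ern1, Trib3 and Chac1 were called, 4 in all. Leaving out ambient BMKO replicate 2, ambient BMCtr replicate 2 or ambient BMCtr replicate 3 gave 1 call, Derl1.

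In the cold, 4 of 32 members (12.5%) passed between genotypes, against 22.8% of all genes. The ATF4 targets Sesn2 and Trib3 were higher in BMKO (9.67% of all genes were) and the chaperone Sdf2l1 and the degradation factor Derl3 were lower (13.1% of all genes). The median of the 32 was -0.05, beside 0.05 for all genes. Chaperones had a median of -0.08 and the ATF4 and CHOP targets -0.16, while all 4 calls except that of Sesn2 were lost without cold BMCtr replicate 2.

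Averaged over both temperatures, 2 of 32 passed (17.8% of all genes), with Sesn2 higher (6.38% of all genes) and Derl3 lower (11.5%). Derl3 no longer passed without ambient BMCtr replicate 1 (-1.49, adjusted p = 0.123) or cold BMCtr replicate 2 (-1.196, adjusted p = 0.139). The interaction of genotype and temperature was called for 1 member, Sesn2, against 0.766% of all genes (0.169% with a more positive log2 difference in the cold and 0.597% with a more negative one). That call lay close to its threshold and was lost in most alternatives, as given below, and sex differs with temperature.

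**Figure D2:**
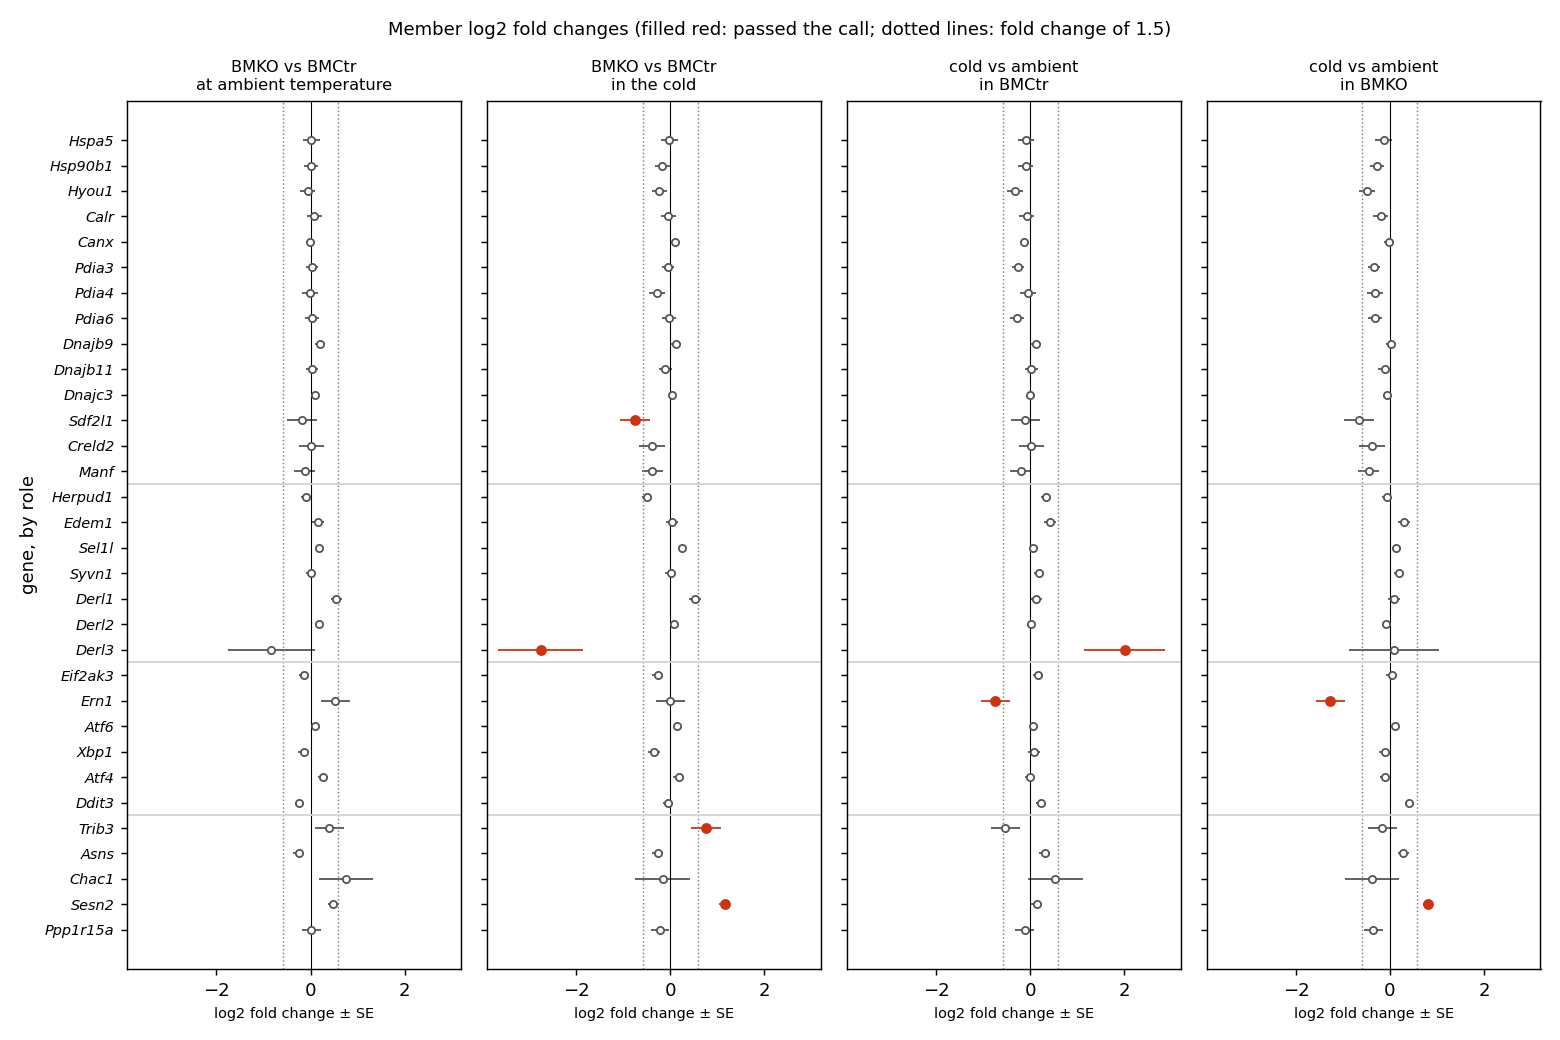
Log2 fold change of each member with its standard error from edgeR (horizontal axis) in 4 comparisons, by role from top to bottom, with filled red points for calls and dotted lines at a fold change of 1.5. The ambient genotype panel has no filled point, and Derl3 has by far the widest error bars.

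Sesn2 was the clearest difference. It encodes sestrin 2, a leucine-binding inhibitor of mTORC1 signalling that ATF4, p53 and NRF2 induce. It was at 22.7, 18.8 and 21.4 CPM in ambient BMCtr and 26.4, 32.7 and 28.9 CPM in ambient BMKO. Cold libraries had 24.8, 21.6 and 22.7 CPM in BMCtr and 46.7, 49.3 and 57.8 CPM in BMKO. The 6 BMKO libraries were all above the 6 BMCtr libraries, and the 3 cold BMKO libraries were above all others. The log2 fold change of BMKO against BMCtr was 1.15 in the cold (SE 0.11, adjusted p = 0.000232, edgeR). At ambient temperature it was 0.48 (SE 0.11, adjusted p = 0.0439), below the minimum fold change. Cold against ambient it rose in BMKO by 0.81 (SE 0.11, adjusted p = 0.000718), and in BMCtr it was 0.14 (SE 0.11, adjusted p = 0.514). The summed adipocyte markers were likewise higher in every BMKO than in every BMCtr library at each temperature and highest in the 3 cold BMKO libraries, with 2 of 8 called higher in BMKO at ambient temperature, 3 in the cold and 4 between temperatures in each genotype. At ambient temperature the nearest sums were 12380 CPM in BMCtr and 12460 CPM in BMKO. Fabp4, the largest part of the sum, overlapped there (3721 to 5603 CPM and 5142 to 7907 CPM). Lep and Lipe overlapped as well, while Adipoq, Plin1, Cidec, Retn and Pparg did not. The part of these markers in the Sesn2 difference was not tested.

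The interaction tests those unequal changes directly. The genotype difference of Sesn2 was 0.67 larger in the cold on the log2 scale (SE 0.16, adjusted p = 0.233, edgeR), which is within the threshold for calls but close to it. Under 24 alternatives the value stayed between 0.55 and 0.73, and the call was lost in 17 of them, among them each fit that left out a single cold library. The call of Sesn2 between genotypes in the cold was kept in 26 of 26 alternatives, with a log2 fold change of 0.94 to 1.22.

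Trib3, a pseudokinase induced by ATF4 and CHOP that restrains AKT, was less certain. Cold libraries had 6.74, 5.54 and 7.04 CPM in BMCtr and 11.8, 11.5 and 9.43 CPM in BMKO, with no overlap and a log2 fold change of 0.76 (SE 0.31, adjusted p = 0.0825, edgeR). At ambient temperature it was at 13.0, 7.24 and 7.59 CPM in BMCtr and 10.8, 18.2 and 7.71 CPM in BMKO, where the groups overlapped (0.40, SE 0.31, adjusted p = 0.471). The call in the cold was lost in 11 of 26 alternatives, among them each fit that left out a single cold BMCtr library (adjusted p = 0.115 to 0.219) or cold BMKO replicate 1 (0.178) or 2 (0.161).

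The other ATF4 and CHOP targets did not follow Sesn2. Asns, the asparagine synthetase that carries the ATF4 element shown above, was at 65.1, 77.8 and 70.6 CPM in ambient BMCtr, 65.9, 61.1 and 52.7 CPM in ambient BMKO, 85.6, 79.7 and 99.3 CPM in cold BMCtr and 76.6, 64.7 and 77.9 CPM in cold BMKO. In the cold it was thus lower in every BMKO library, by a log2 fold change of -0.27 (SE 0.12, adjusted p = 0.0961), below the minimum fold. Chac1, which degrades glutathione, spread from 3.09 to 14.9 CPM among the ambient BMKO libraries alone and passed in 0 comparisons of the main fit. Ppp1r15a, the GADD34 subunit that directs a phosphatase to eIF2, lay between 17.3 and 33.9 CPM and also passed in none, with its highest value in ambient BMCtr replicate 1, where the 10 immediate-early genes summed to 699.6 CPM (185.1 to 548.5 CPM elsewhere).

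**Figure D3:**
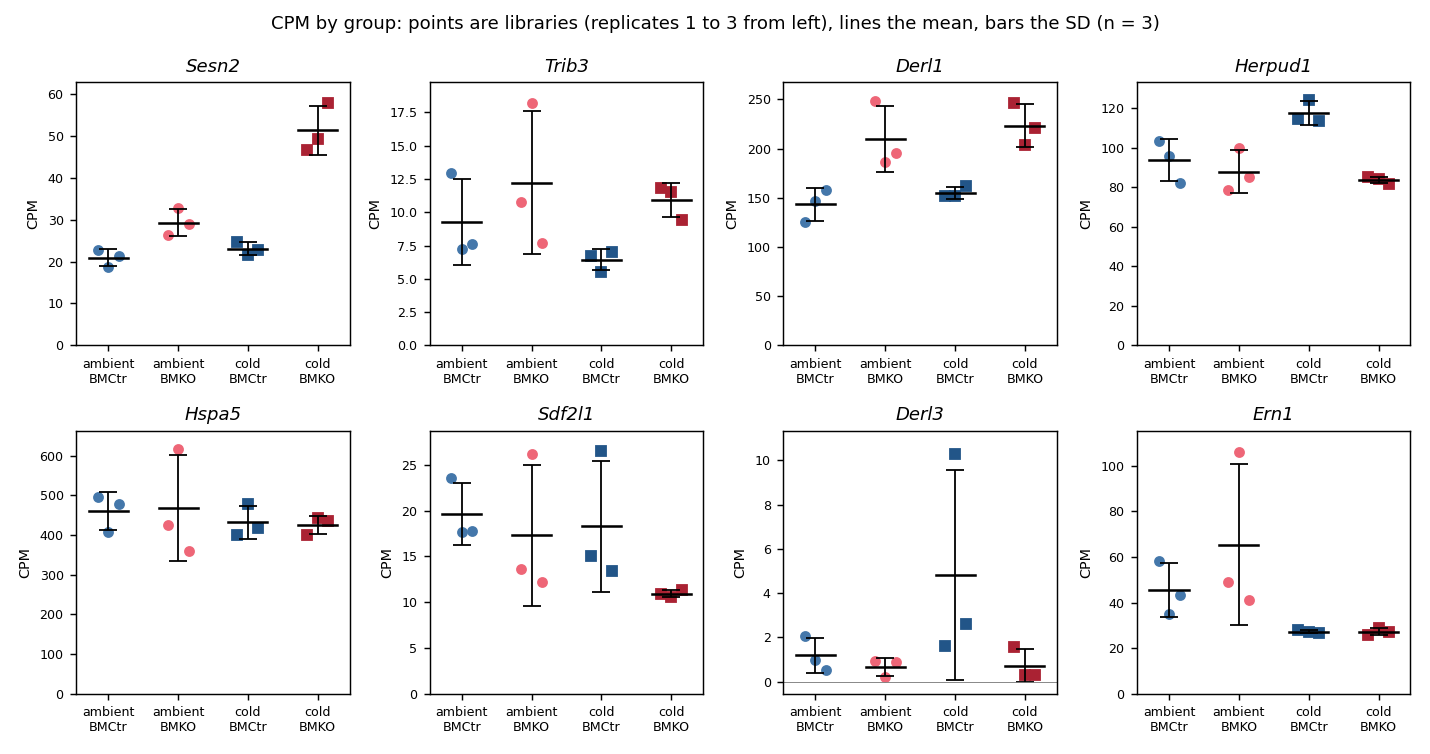
CPM of 8 members by group, with 1 point per library, the mean as a line and the SD as a bar (n = 3). Sesn2 in cold BMKO lies above all other groups, Herpud1 in cold BMCtr lies above cold BMKO, and single libraries stand apart in Ern1 (ambient BMKO, 105.9 CPM) and Derl3 (cold BMCtr, 10.3 CPM).

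The degradation genes divided. Derl1, a membrane protein through which misfolded proteins leave the ER, was at 124.9, 147 and 157.8 CPM in ambient BMCtr and 248.4, 185.9 and 195.2 CPM in ambient BMKO. Cold BMCtr had 151.6, 151.8 and 162.4 CPM and cold BMKO 246.1, 203.5 and 220.7 CPM. All 6 BMKO libraries were above all 6 BMCtr libraries, and the mean genotype effect was 0.54 on the log2 scale (SE 0.09, adjusted p = 0.00182, edgeR), just short of the 1.5-fold minimum. Its genotype differences at ambient temperature (0.55, adjusted p = 0.0387) and in the cold (0.53, adjusted p = 0.0127) were alike in size, with an interaction of -0.03 (SE 0.18).

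Sel1l, the adaptor of the HRD1 ubiquitin ligase complex, showed a smaller difference of that direction. It was at 176.3, 187.5 and 195.9 CPM in ambient BMCtr, 216.4, 204.8 and 212.2 CPM in ambient BMKO, 183, 200.2 and 198.2 CPM in cold BMCtr and 226, 236.8 and 225.9 CPM in cold BMKO. In TMM-scaled CPM the groups did not overlap at either temperature, and the mean effect was 0.21 (SE 0.05, adjusted p = 0.00633). In FPKM the cold groups overlapped, at 17.4 to 19.2 in BMCtr and 18.0 to 20.3 in BMKO. Library size alone put the all-gene median of the mean effect at -0.14, beside 0.02 with TMM. Syvn1 (HRD1), the ligase itself, had a mean genotype effect of 0.01 (SE 0.08), and Derl2 had 0.13 (SE 0.05, adjusted p = 0.0548).

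Herpud1, which assembles that complex and carries both an ER stress element II and an ATF4 element, ran the other way under cold acclimation. It was at 103.3, 95.7 and 82.4 CPM in ambient BMCtr, 78.7, 100.1 and 85.3 CPM in ambient BMKO, 114.7, 124.5 and 113.6 CPM in cold BMCtr and 85.2, 84.1 and 82.0 CPM in cold BMKO. The cold groups did not overlap (-0.49, SE 0.10, adjusted p = 0.0076, edgeR), while the ambient groups did. In BMCtr it was 0.33 higher in the cold (SE 0.10, adjusted p = 0.0579), below the minimum fold. Cold BMCtr was also the group whose 3 libraries were all high in lymphocyte markers, and their part in the Herpud1 value was not tested.

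Edem1, a lectin that extracts misfolded glycoproteins, was at 180.6, 156.5 and 156.1 CPM in ambient BMCtr, 178.3, 188.8 and 185.4 CPM in ambient BMKO, 205.5, 270.4 and 185.4 CPM in cold BMCtr and 219.9, 227.1 and 231.3 CPM in cold BMKO. The cold libraries were above the ambient libraries of their genotype, by 0.42 in BMCtr (SE 0.12, adjusted p = 0.0435) and 0.30 in BMKO (SE 0.12, adjusted p = 0.106). Neither reached the minimum fold.

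Derl3 and Sdf2l1 rested on a few libraries. Derl3 had 42, 20 and 10 counts in ambient BMCtr, 18, 4 and 19 in ambient BMKO, 32, 219 and 49 in cold BMCtr and 27, 5 and 5 in cold BMKO. Cold BMCtr replicate 2 thus stood at 10.3 CPM, against 1.61 and 2.61 CPM in the rest of its group and 1.58, 0.287 and 0.277 CPM in cold BMKO. The log2 fold change of BMKO against BMCtr in the cold was -2.76 (SE 0.91, adjusted p = 0.0393, edgeR), and without that library it was -1.58 (adjusted p = 0.205) and no longer called.

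Plasma cells, which secrete antibody, are rich in these ER proteins. Of their 7 listed markers, Jchain, Mzb1, Tnfrsf17, Pou2af1 and Prdm1 were highest in cold BMCtr replicate 2, as Derl3 was. Irf4 (146.4 CPM) was highest in ambient BMKO replicate 2, where Derl3 was lowest at 0.204 CPM. Sdc1 (81.6 CPM) was highest in ambient BMCtr replicate 3. In ambient BMKO replicate 2, Irf4 made up most of the marker sum of 207.6 CPM. Jchain, the joining chain of secreted antibodies, was at 499.8 CPM in cold BMCtr replicate 2 and between 3.36 and 126.9 CPM in the other 11 libraries. In the cold, 4 of the 7 plasma cell markers were called lower in BMKO. With their mean log2 CPM as a covariate, an alternative added after the data were seen, the Derl3 difference changed sign to 0.57 (adjusted p = 0.775), and with the lymphocyte markers as covariate it was -1.04 (adjusted p = 0.732). The summed plasma cell markers (276.7 to 769.5 CPM in cold BMCtr, 71.7 to 128.2 CPM in cold BMKO) and lymphocyte markers did not overlap between the cold genotypes, so in these fits the markers and genotype can hardly be told apart, and a call lost under them does not show which cells the RNA came from. The rise of Derl3 from ambient to cold in BMCtr (2.01, SE 0.86, adjusted p = 0.159) was likewise 0.84 without that library and 0.42 with the plasma cell markers, and was called under neither, nor without ambient BMCtr replicate 2 (1.93, adjusted p = 0.316) or 3 (1.71, adjusted p = 0.323).

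Sdf2l1, a partner of BiP and of ER cochaperones, was at 23.6, 17.6 and 17.7 CPM in ambient BMCtr, 13.6, 26.2 and 12.2 CPM in ambient BMKO, 15.04, 26.5 and 13.4 CPM in cold BMCtr and 10.9, 10.6 and 11.3 CPM in cold BMKO. Every cold BMKO library was below every cold BMCtr library (-0.74, SE 0.32, adjusted p = 0.0925, edgeR). The call was lost without any single cold BMKO library (adjusted p = 0.166 to 0.179). Without cold BMCtr replicate 2 the difference was -0.40 (adjusted p = 0.335), and with the plasma cell markers as covariate -0.43 (adjusted p = 0.765). Creld2 showed the same single high library, at 37.7 CPM against 17.8 and 17.5 CPM, and was not called.

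**Figure D4:**
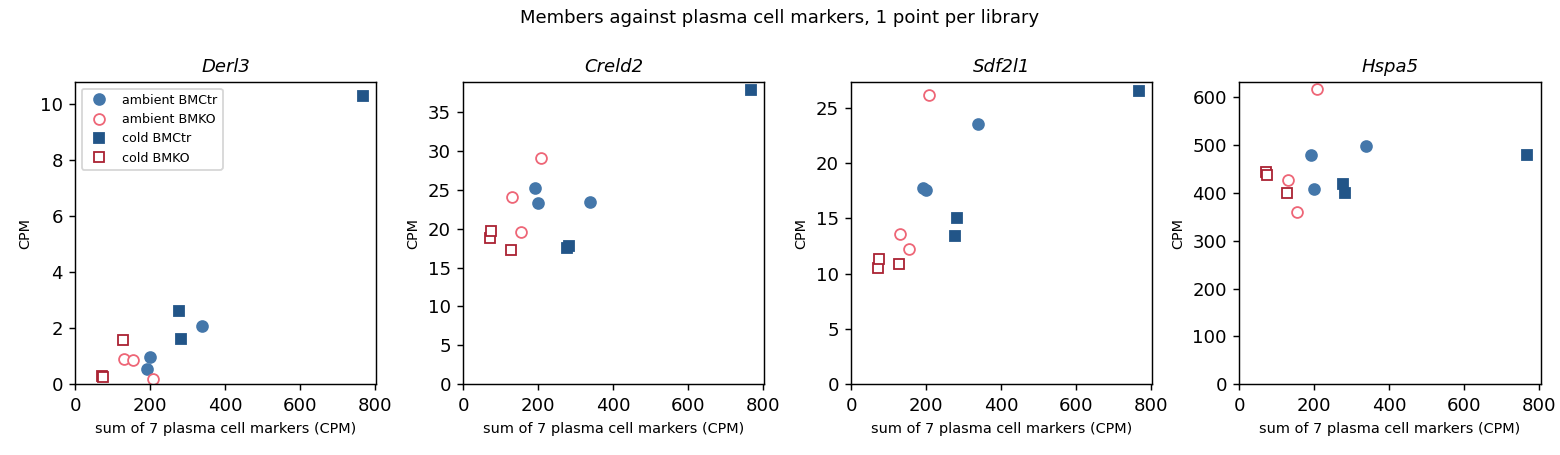
CPM of Derl3, Creld2, Sdf2l1 and Hspa5 (vertical axes) against the summed CPM of 7 plasma cell markers (horizontal axes), 1 point per library, filled for BMCtr and open for BMKO. Cold BMCtr replicate 2, at 769.5 CPM of markers, is highest in Derl3, Creld2 and Sdf2l1, while the highest Hspa5 value (617.1 CPM) is in ambient BMKO replicate 2.

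With TMM scaling, the abundant chaperones showed no genotype difference of note. Library size alone put the chaperone median between cold genotypes at -0.30 in place of -0.08, beside -0.17 for all genes, and Manf was then called. Hspa5 was at 496.9, 407 and 479.3 CPM in ambient BMCtr, 425.9, 617.1 and 359.2 CPM in ambient BMKO, 399.2, 478.3 and 417.6 CPM in cold BMCtr and 399.9, 442 and 436.2 CPM in cold BMKO, so the groups overlapped throughout. Its mean genotype effect was 0.00 with an SE of 0.12, and the spread among the 3 ambient BMKO libraries (SD 133.9 CPM) was wider than in any other group. The 7 chaperones with an ER stress response element had genotype log2 fold changes from -0.00 to 0.10 at ambient temperature and from -0.39 to 0.09 in the cold, and the 5 with a window but no match ranged from -0.18 to 0.21 and from -0.74 to 0.11.

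Between temperatures, 2 of 32 members passed in BMCtr, against 14.8% of all genes, with Derl3 higher (3.48% of all genes) and Ern1 lower (11.3%). In BMKO, 2 of 32 passed, against 18.8% of all genes, with Sesn2 higher (6.41%) and Ern1 lower (12.4%). Without ambient BMKO replicate 3, Hyou1, Sdf2l1 and Manf passed as well and made 5, while in BMCtr 0 passed without ambient BMCtr replicate 3 or cold BMCtr replicate 2. The medians of the 32 were 0.02 in BMCtr and -0.10 in BMKO, beside 0.00 and -0.02 for all genes. The 2 comparisons share no library, but sex differs with temperature in both. Cell markers also moved with temperature: 9 of 10 mammary epithelium markers were called lower in the cold in each genotype (medians -8.16 in BMCtr and -8.65 in BMKO), 4 of 8 adipocyte markers were called higher in each, and 3 of 10 immediate-early genes in BMCtr and 6 in BMKO were called lower. Summed, the mammary list changed little (2025 to 3191 CPM at ambient temperature, 1607 to 2972 CPM in the cold) because Trf, at 1416 to 2970 CPM, made up most of it. Mammary epithelium is a secretory tissue, and its part in the changes of these members was not tested.

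Ern1, which encodes IRE1, was at 58.4, 34.9 and 43.1 CPM in ambient BMCtr and 48.9, 105.9 and 41.3 CPM in ambient BMKO. Cold libraries had 27.9, 27.2 and 26.7 CPM in BMCtr and 25.6, 28.8 and 27.1 CPM in BMKO, so that all 6 cold libraries lay below all 6 ambient ones and within a narrow range. The log2 fold change of cold against ambient was -0.74 in BMCtr (SE 0.31, adjusted p = 0.152, edgeR) and -1.27 in BMKO (SE 0.31, adjusted p = 0.0154). Without ambient BMKO replicate 2 the change in BMKO was -0.75 (adjusted p = 0.0121) and still called. The call in BMCtr was lost in 8 of 25 alternatives, among them each fit that left out a single cold BMCtr library (adjusted p = 0.255 to 0.305), ambient BMCtr replicate 1 (-0.52, adjusted p = 0.299) or 3 (-0.74, adjusted p = 0.22).

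The chaperones leaned lower in the cold, mostly in BMKO, without passing the call, in the same comparisons in which 9 of 10 mammary markers were lower. In BMCtr 4 of 14 had a positive log2 fold change (median -0.10, or 0.00 without cold BMCtr replicate 1), and in BMKO 1 of 14 (median -0.29). Hyou1, an ER nucleotide exchange factor of the HSP70 family, was at 136.1, 102.7 and 134 CPM in ambient BMCtr, 108.1, 150.3 and 97.9 CPM in ambient BMKO, 93.1, 115.6 and 88.4 CPM in cold BMCtr and 84.3, 84.4 and 84.2 CPM in cold BMKO. Its change in BMKO was -0.49 (SE 0.17, adjusted p = 0.0555), with the smallest p of the 14, and Sdf2l1 had -0.66 (SE 0.32, adjusted p = 0.155).

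Pdia3 was at 410.2, 371.9 and 428.9 CPM in ambient BMCtr, 363.8, 511 and 359.5 CPM in ambient BMKO, 334.4, 358.2 and 324.5 CPM in cold BMCtr and 331.2, 323.1 and 325.1 CPM in cold BMKO. The cold libraries lay below the ambient ones of their genotype, with log2 fold changes of -0.25 in BMCtr (SE 0.13, adjusted p = 0.24) and -0.33 in BMKO (SE 0.13, adjusted p = 0.0823). Without ambient BMKO replicate 2 the chaperone median in BMKO was -0.12 in place of -0.29.

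In the main fit, changes among the remaining sensors and factors stayed below the minimum fold. Ddit3 was 0.23 higher in the cold in BMCtr (SE 0.09, adjusted p = 0.148) and 0.41 in BMKO (SE 0.09, adjusted p = 0.0117), with every cold library between 15.4 and 17.3 CPM and every ambient one between 11.2 and 14.9 CPM. Atf4 had a mean genotype effect of 0.22 (SE 0.08, adjusted p = 0.0425) and Xbp1 one of -0.25 (SE 0.09, adjusted p = 0.0506). In the cold, Eif2ak3 was at 51.1 to 52.2 CPM in BMCtr and 41.5 to 43.6 CPM in BMKO (-0.27, SE 0.11, adjusted p = 0.0788). Relative to its level Atf6 varied least of the 3 sensors, from 87.7 to 107.4 CPM (highest over lowest 1.22).

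Wider lists of the same pathways are given beside these genes. They were chosen with earlier results of these data known, so their counts are descriptions and not independent support. At ambient temperature, 4 of 30 amino acid and tRNA synthetase targets of ATF4 were called higher in BMKO and 0 lower, against 3.88% and 4.75% of all genes, and DESeq2 and limma called 3 each. The list median was 0.07, or -0.05 with library size alone, beside -0.01 for all genes. Gars, the glycyl-tRNA synthetase, was at 94.8, 86.1 and 98.9 CPM in BMCtr and 144.9, 147.5 and 129.1 CPM in BMKO (0.59, SE 0.09, adjusted p = 0.00533, edgeR). The transsulfuration enzymes Cbs and Cth, which make cysteine, rose by 1.49 (SE 0.25, adjusted p = 0.0101) and 1.34 (SE 0.31, adjusted p = 0.0402), and the arginine transporter Slc7a3 by 0.76 (adjusted p = 0.166).

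Of the 20 stress factors and secreted targets of ATF4 and CHOP, 5 were called higher and 0 lower at ambient temperature, against the same 3.88% and 4.75% of all genes, with a list median of 0.30 beside -0.01. Atf5, a transcription factor of mitochondrial stress, was at 135.4, 164.7 and 179.8 CPM in BMCtr and 264.5, 275.9 and 219.5 CPM in BMKO (0.66, SE 0.14, adjusted p = 0.0289). The stress-induced chromatin protein Nupr1 rose by 0.75 (adjusted p = 0.0416), the secreted glycoprotein Stc2 by 1.13 (adjusted p = 0.0598) and the alanine transaminase Gpt2 by 0.69 (adjusted p = 0.105). The summed adipocyte markers were likewise higher in BMKO at each temperature, and their part in the values of this list was not tested.

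In the cold, 4 of 30 genes of the amino acid list were called higher and 5 lower in BMKO, near the 9.67% and 13.1% of all genes, with a median of 0.09 beside 0.05. Gars (0.73, adjusted p = 0.000586) and Cth (1.34, adjusted p = 0.0109) were higher again, while the proline enzyme Aldh18a1 was lower (-0.83, adjusted p = 0.0146). Slc7a11, the cystine importer, was at 10.4, 11.7 and 8.06 CPM in BMCtr and 0.292, 0.459 and 0.111 CPM in BMKO (-5.10, SE 1.27, adjusted p = 0.0145). In ambient BMCtr replicate 1, which had 1052 CPM of lymphocyte markers, it was at 13.5 CPM. The difference was -0.99 (adjusted p = 0.479) with the lymphocyte and -1.75 (adjusted p = 0.596) with the plasma cell markers as covariate, but both separate the cold genotypes, so the source of this RNA was not tested.

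The stress factor list had 6 of 20 higher and 1 lower in the cold, against 9.67% and 13.1% of all genes, with a median of 0.30 beside 0.05. Atf5 was at 137, 126.1 and 144.4 CPM in BMCtr and 330.4, 242.7 and 279.1 CPM in BMKO (1.06, SE 0.14, adjusted p = 0.00107), a call kept in 26 of 26 alternatives. Vldlr, a lipoprotein receptor, rose by 0.91 (adjusted p = 0.00862) and the cell death gene Bcl2l11 fell by 0.82 (adjusted p = 0.0176). Fgf21, a hormone that fat and liver release under stress, was at 0, 0.0469 and 0.0534 CPM in BMCtr and 0.759, 0.345 and 0.277 CPM in BMKO, near the limit of detection in each.

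With temperature, the stress factor list had 1 of 20 higher and 3 lower in BMCtr and 1 higher and 4 lower in BMKO, with medians of -0.03 and 0.03. Of all genes 3.48% were higher and 11.3% lower in BMCtr, and 6.41% and 12.4% in BMKO, so these counts were near the background. Stc2 was between 38.7 and 166.3 CPM in the ambient libraries and between 17.0 and 30.3 CPM in the cold (-1.75 in BMCtr, adjusted p = 0.00274, and -2.75 in BMKO, adjusted p = 0.000166), and Dusp4, a phosphatase of ERK, fell by 1.93 in BMCtr (adjusted p = 0.0117) and fell by 1.37 in BMKO (adjusted p = 0.0357). Of the amino acid list, 1 of 30 was higher and 1 lower in BMCtr, and 1 higher and 3 lower in BMKO.

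The rest of the ER machinery showed few calls. Of all genes, 8.63% were called between ambient and 22.8% between cold genotypes, and 14.8% in BMCtr and 18.8% in BMKO between temperatures. Of 24 further degradation genes and of 25 translocon and glycosylation genes, 0 were called in each of the 4 comparisons, with 7 and 3 at an unadjusted p under 0.05 between ambient genotypes, 11 and 11 between cold genotypes, 7 and 2 between temperatures in BMCtr and 11 and 4 in BMKO by edgeR. DESeq2 also called 0 in each, and limma called 0 except for 3 translocon and glycosylation genes between cold genotypes. Of the 24 degradation genes, 23 had a positive genotype log2 fold change at ambient temperature (median 0.12) and 21 in the cold (median 0.17), while 48.6% and 54.1% of all genes did. With library size alone in place of TMM these were 12 and 11 of 24, with medians of -0.01 and -0.04. The translocon and glycosylation genes had medians of 0.07 in both. Among 22 disulfide and glycoprotein folding genes, the oxidase Ero1lb was lower in cold BMKO (-1.39, adjusted p = 0.0147), with -0.28 (adjusted p = 0.681) and -0.07 (adjusted p = 0.929) under the lymphocyte and plasma cell covariates, which do not overlap between the cold genotypes. Fkbp11, a folding isomerase of secretory cells, was lower in the cold in BMCtr (-1.18, adjusted p = 0.125) and BMKO (-1.48, adjusted p = 0.0456), and the glucosidase Mogs in BMKO (-0.70, adjusted p = 0.0023). The part of the mammary markers, lower in the same comparisons, in the Fkbp11 value was not tested. Of 14 genes of eIF2 regulation (kinases, subunits of eIF2 and eIF2B, and phosphatase partners), Eif2s3x alone passed in edgeR, lower in the cold in BMCtr (-0.83, adjusted p = 0.000158), and limma called 1 gene between temperatures in BMKO as well. Eif2s3x is X-linked and escapes X inactivation, and all ambient libraries were high in Xist.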

How the data were processed

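Total RNA of iWAT was made into Kapa mRNA libraries and read in 51 cycles. Per the paper's methods, the authors aligned reads to mm10 with STAR and deposited counts of unique reads per GENCODE gene from HTSeq-count. The deposited log2 values are log2(FPKM + 0.1), and the authors took p-values from DESeq2. For versions, GENCODE release and strand, the sources used here state nothing.

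Groups came from the sample labels. Whether each library is a separate mouse is not stated there, so p-values measure the spread between these libraries. The 15413 genes with FPKM over 0.1 in at least 50% of libraries were fitted in edgeR 4.0.16 (R 4.3.3, TMM, glmQLFit and glmQLFTest, Benjamini-Hochberg over all genes), with 4 groups of 3 in 1 model. Log2 CPM used a prior count of 2. FPKM served for levels between genes and for the check of Sel1l. No replicates were duplicates. The fit was tested on simulated data.

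The members and lists were chosen with earlier results of these data known. All 32 members may be named, with values by library for those called between genotypes and up to 4 per role called between temperatures (the 2 smallest p if none), plus Derl1, Herpud1 and Hspa5, added after their values were seen. Wider lists name up to 4 called genes with the smallest p. Alternatives were DESeq2 1.42.0, limma 3.58.1 on log2 FPKM, RLE or library size alone, other filters, only the compared groups, a stricter threshold, a replicate block, marker covariates and each library left out, and, added after the data were seen, the plasma cell covariate and a joint omission. Of the 28 RefSeq windows, 23 had the bases after the start within an annotated transcript.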

Additional observations from a re-analysis of the deposited data

Results flagged for a closer look

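The genotype effect on Sesn2 differed between the temperatures by the test of the difference itself, a call lost in 17 of 24 alternatives, among them each fit without a single cold library. The log2 fold change of BMKO against BMCtr was 0.48 at ambient temperature and 1.15 in the cold, a difference of 0.67 (SE 0.16, edgeR adjusted p = 0.233, 3 libraries a group), with Sesn2 higher in 3 of 3 BMKO libraries than in all BMCtr libraries at each temperature. Ambient libraries were high in Xist and cold ones in Ddx3y, so a difference between temperatures and one between sexes cannot be told apart here. Groups of 3 are too small for a test of single outlying libraries.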

How the results depend on the processing

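Of 11 calls of members, 4 were kept under every alternative run: Sesn2 in the cold, with cold in BMKO and averaged over temperatures, and Ern1 in BMKO. The Derl3 difference reversed with the plasma cell covariate, to 0.57 in the cold and 0.40 averaged, as did that of Dusp4 with the lymphocyte covariate (-0.12 and -0.015). An adjusted p under 0.05 with no fold minimum gave 2 members between ambient genotypes (Derl1 and Sesn2), 1 between temperatures in BMCtr, 7 for the mean genotype effect and 0 for the interaction. Shares of all genes called are given only for the main settings, so the counts under alternatives in this paragraph have no background beside them. Library size alone put the median of all genes at -0.13 between ambient and -0.17 between cold genotypes and at -0.17 between temperatures in BMKO. It called 5 members in BMKO between temperatures and 0 in the interaction. Limma gave 1, 4 and 0 members for temperature in BMCtr, temperature in BMKO and the interaction. The muscle covariate gave 2 members in the cold, Derl3 and Sesn2, and lost the calls of Sdf2l1 and Trib3. The lymphocyte covariate, which does not overlap between the cold genotypes, called Xbp1, Chac1 and Sesn2 between them and lost Derl3, Sdf2l1 and Trib3. It gave 1 in BMCtr between temperatures (Chac1, in place of Derl3 and Ern1), 1 averaged and 0 in the interaction. The plasma cell covariate gave 1 in the cold, 0 in BMCtr between temperatures, 1 averaged and 0 in the interaction. Fitting only the compared groups gave 1 in BMCtr, and no filter 0 in the interaction. With both ambient BMKO replicate 2 and cold BMCtr replicate 2 left out, counts were 1 between ambient and 2 between cold genotypes, 1 in BMCtr and 1 averaged. Leaving out 1 library gave 0 to 4 between ambient genotypes, 1 to 4 in the cold, 0 to 2 in BMCtr, 2 to 5 in BMKO, 1 to 3 averaged and 0 to 1 for the interaction. The cause of these shifts was not tested. Same-numbered libraries did not pair (18 correlations of deviations, -0.70 to 0.45, 6 over 0.1), and a replicate block gave 0 members in the interaction and changed no other member count.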

Other observations

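The mitochondrial unfolded protein response raises chaperones and proteases of the mitochondrial matrix. Of 14 genes listed for it, 1 was called higher in BMKO at ambient temperature, 3 in the cold, 0 between temperatures in BMCtr and 2 in BMKO, against 3.88%, 9.67%, 3.48% and 6.41% of all genes called higher. In BMCtr 5 genes had an unadjusted p under 0.05 in edgeR, DESeq2 and limma alike, and the last 2 tools also called 0. In BMKO DESeq2 called 4 and limma 1, and between cold genotypes they called 3 and 2. With edgeR 0 were lower in each, with list medians of 0.23, 0.55, 0.23 and 0.49 beside all-gene medians of -0.01, 0.05, 0.00 and -0.02. Clpx, the unfoldase of the ClpXP protease, was at 49.2, 53.7 and 54.6 CPM in ambient BMCtr, 103, 85.8 and 94.2 CPM in ambient BMKO, 71.5, 64.1 and 77.8 CPM in cold BMCtr and 189.4, 129.1 and 156.7 CPM in cold BMKO. The BMKO libraries lay above the BMCtr libraries at each temperature (0.85, adjusted p = 0.00801, and 1.15, adjusted p = 0.000526, edgeR), and both calls were kept in 26 of 26 alternatives. In the cold the import genes Timm17a (0.74, adjusted p = 0.00458) and Grpel1 (0.84, adjusted p = 0.00734) were higher as well. The summed adipocyte markers were also higher in every BMKO than in every BMCtr library at each temperature. The paper reports mitochondria-related genes as a class to be higher in iWAT lacking Bmal1. The part of either in these values was not tested.

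Among 17 tested ER stress sensors and membrane factors, 1 was called higher at ambient temperature and 1 higher and 1 lower in the cold (5.88% and 11.8% in either direction, against 8.63% and 22.8% of all genes). Creb3l1 (OASIS), an ER-bound transcription factor of collagen-secreting cells, was at 21.1, 19.6 and 28.3 CPM in ambient BMCtr, 51.6, 70 and 38.8 CPM in ambient BMKO, 31.2, 28.4 and 24.5 CPM in cold BMCtr and 58.1, 66.7 and 64.1 CPM in cold BMKO. Its log2 fold changes were 1.22 (SE 0.21, adjusted p = 0.0107) and 1.17 (SE 0.21, adjusted p = 0.00379). Bhlha15 (MIST1), a factor of secretory cells, was highest in cold BMCtr replicate 2 at 5.73 CPM, with 0.956 and 1.23 CPM in the rest of that group and 0.642, 0 and 0.222 CPM in cold BMKO, where its difference of -3.18 (adjusted p = 0.0228) was -2.11 (adjusted p = 0.493) with the plasma cell covariate. That covariate separates the cold genotypes, so a lost call does not show the source of the RNA. Between temperatures 2 of the 17 were lower in BMCtr and 3 in BMKO (11.3% and 12.4% of all genes), with Creb3l4 lower in both (-1.97 and -1.90).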
